A study of Mus musculus with 2 samples.

Results

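The genes described here store and break down glycogen, interconvert lactate and pyruvate, and carry lactate across cell membranes. They are 9 of the 31054 genes in the matrices, chosen by symbol: Pygb, Pygm, Gys1, Gbe1 and Ppp1r3c for glycogen, Ldha and Ldhb for lactate dehydrogenase, and the monocarboxylate transporters Slc16a1 and Slc16a7. All 9 were found in both libraries. The study profiled single cells of the preoptic area, a hypothalamic region that controls sleep and body temperature, in wild-type C57BL/6J mice aged 9 to 10 weeks. One library (SD) came from mice killed after 6 h of sleep deprivation, and the other (SD+RS) from mice given 2 h of rebound sleep after the same 6 h. Both libraries pooled males and females, both were prepared by Act-seq, a dissociation in the presence of a transcription inhibitor, and neither was from undisturbed mice. Each group was 1 library, so the difference between libraries has no replicate check and no p-value was computed. Every interval given is a 95% interval that covers counting error only.

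In brain, glycogen lies mostly in astrocytes, the glial cells that contact both vessels and synapses. Glycogen synthase and the branching enzyme build it, and glycogen phosphorylase releases its glucose units. Lactate made from that glucose can leave a cell through a monocarboxylate transporter and be oxidised in another, a route known as the astrocyte to neuron lactate shuttle. Lactate dehydrogenase is a tetramer of A subunits (Ldha), linked to lactate production, and B subunits (Ldhb), linked to lactate oxidation.

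After filtering and removal of called doublets, 9295 SD and 7412 SD+RS cells remained. The 7 described classes held 3547 and 3984 neurons, 2095 and 1274 astrocytes, 463 and 293 endothelial cells, 211 and 122 mural cells, 1366 and 830 oligodendrocytes, 261 and 175 oligodendrocyte precursors, and 222 and 169 microglia. The members took no part in the clustering. The 10 astrocyte markers summed to 16525 and 17852 CPM (UMIs per 1000000 UMIs of the class) in astrocytes and to 50.1 and 41.3 in neurons. The 8 neuron markers summed to 7241 and 7161 CPM in neurons, and to 459 and 269 in astrocytes. The libraries differed in sex mix: of cells with UMIs of Xist or of Y-linked genes but not both, 58.8% of SD and 80.5% of SD+RS astrocytes had Xist, against 38.3% and 78.1% of neurons. They shared 23 cell barcodes. Median depth was 3444 and 3140.5 UMIs in astrocytes, 21578 and 21046.5 in neurons, and 3543 and 3188 in endothelial cells. Levels are CPM, with the SD value first. A member counted as higher or lower in one class than another when it differed at least 2-fold in the same direction in both libraries, with at least 10 UMIs in each sum.

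**Figure D1:**
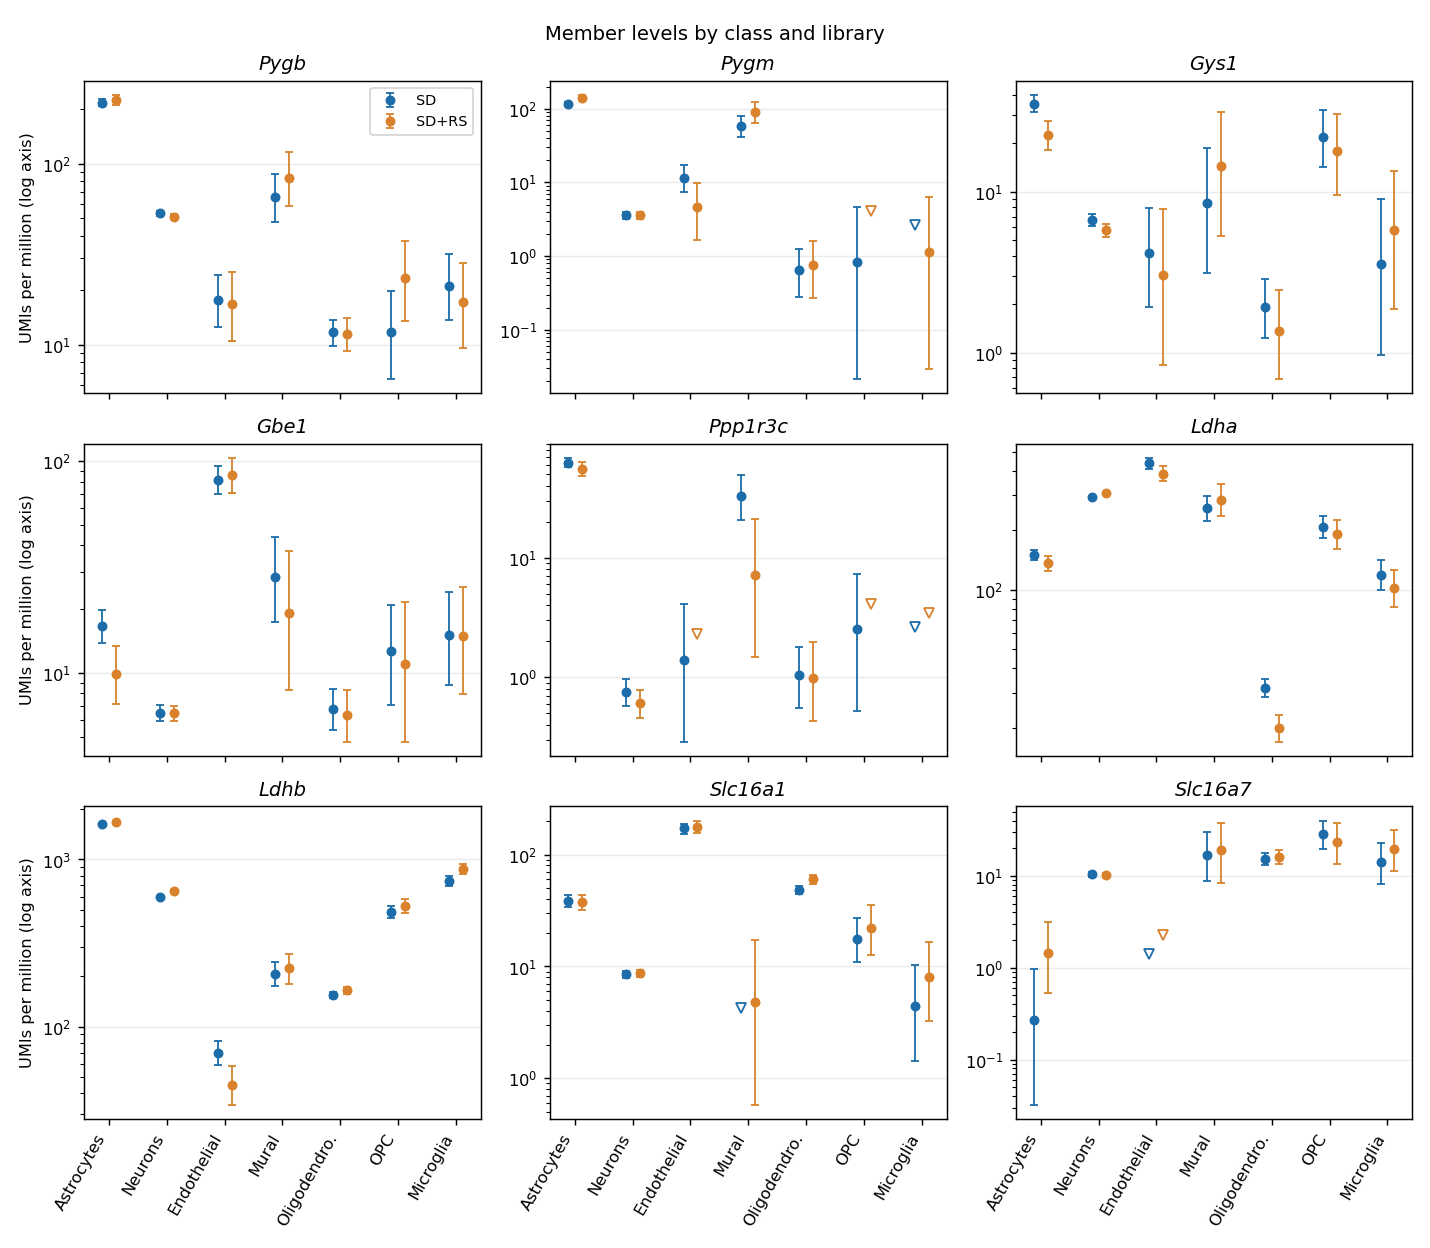
Level of each of the 9 genes in 7 cell classes, in CPM on a log axis. Points are the SD (blue) and SD+RS (orange) libraries, bars are 95% Poisson intervals, and open triangles mark the level of 3 UMIs where none was found. Pygb, Pygm, Gys1, Ppp1r3c and Ldhb were highest in astrocytes, and Gbe1, Ldha and Slc16a1 in endothelial cells.

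Most of the members that could be tested were higher in astrocytes than in neurons, in both libraries. Of 8 members with enough UMIs, 6 were higher in astrocytes than in neurons (Pygb, Pygm, Gys1, Ppp1r3c, Ldhb and Slc16a1) and 0 were lower. Over 11385 genes tested, 25.9% were higher in astrocytes and 19.4% lower. The median log2 ratio of the 8 members was 2.11 in SD and 2.04 in SD+RS, against 0.10 and 0.12 over all genes tested. The same 6 members passed with called doublets kept, at 2 other clustering resolutions, in cells with Xist alone and in cells with Y-linked UMIs alone.

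**Figure D2:**
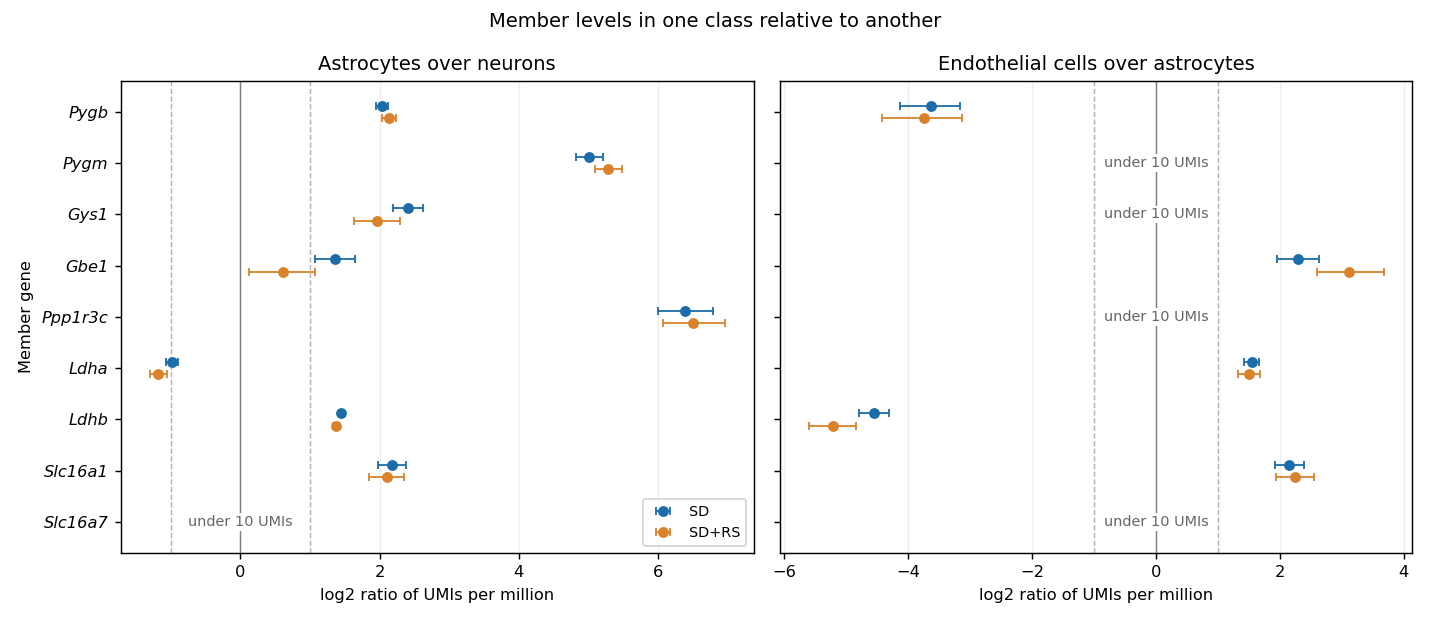
Log2 ratio of each gene's level in astrocytes over neurons (left) and in endothelial cells over astrocytes (right), in SD (blue) and SD+RS (orange). Bars are 95% intervals, dashed lines mark 2-fold, and "under 10 UMIs" marks genes with too few UMIs in at least 1 of the sums. Ppp1r3c and Pygm lay farthest to the astrocyte side of neurons, and Gbe1, Ldha and Slc16a1 were more than 2-fold higher in endothelial cells than in astrocytes.

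Ppp1r3c encodes a subunit that brings protein phosphatase 1 to glycogen, where it activates glycogen synthase. It lies on chr19:36731731-36736653, minus strand (mm10, GENCODE). In astrocytes it was at 62.6 CPM (57.1 to 68.6, 470 UMIs) in SD and 55.3 (48.4 to 63.0, 229 UMIs) in SD+RS. In neurons it was at 0.75 CPM (0.573 to 0.963) and 0.607 (0.458 to 0.791), from 61 and 55 UMIs. It was 83.5-fold (63.9 to 111) and 91.1-fold (67.6 to 125) higher in astrocytes, the largest ratio among the 8 tested members in both libraries. The only other class with a clear level was mural cells of the vessel wall, at 32.8 CPM (20.8 to 49.2, 23 UMIs) in SD and 7.20 (1.48 to 21.0, 3 UMIs) in SD+RS. Those mural UMIs came mainly from the cluster led by the smooth muscle genes Acta2, Tagln and Myh11, with 20 and 2 UMIs, while the cluster led by the pericyte genes Vtn and Kcnj8 had 3 and 1. Microglia had 0 UMIs in either library, where 3 UMIs would be 2.66 and 3.44 CPM.

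The 2 phosphorylases had different distributions. Pygm, the muscle form of glycogen phosphorylase (chr19:6384399-6398459, plus strand), was at 116 CPM (108 to 124) and 141 (129 to 152) in astrocytes and at 3.59 and 3.60 in neurons. Its astrocyte level was 32.3-fold (28.2 to 37.0) and 39.0-fold (34.0 to 44.9) the neuronal one. Pygb, the brain form (chr2:150786735-150831758, plus strand), was at 219 CPM (208 to 229) and 225 (211 to 240) in astrocytes and at 53.2 (51.7 to 54.9) and 51.1 (49.6 to 52.5) in neurons. Its ratio was 4.10-fold (3.88 to 4.35) and 4.41-fold (4.10 to 4.73), a smaller gap between the classes than for Pygm. A Pygb UMI was found in 50.7% of SD astrocytes and 62.4% of SD neurons. With each cell thinned to 2000 UMIs, and 170 astrocytes and 45 neurons too shallow for that left out, the SD shares were 34.1% and 10.0%. In SD+RS the unthinned shares were 47.8% and 60.5% and the thinned ones 34.4% and 8.83%, with 101 astrocytes and 10 neurons left out.

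Mural cells also carried both phosphorylases. Pygm was at 58.4 (41.9 to 79.3) and 91.2 CPM (64.5 to 125) there, second after astrocytes in both libraries. Pygb was at 65.6 (48.0 to 87.5) and 84.0 (58.5 to 117). Within mural cells Pygb was at 99.7 and 106 CPM in the smooth muscle cluster and at 27.3 and 26 in the pericyte cluster, whereas Pygm was at 59.3 and 73.0 in smooth muscle and 57.5 and 138 in pericytes. These values divide 46 and 35 Pygb UMIs and 41 and 38 Pygm UMIs, so each rests on few. The pericyte cluster had 123 and 49 cells. Endothelial cells had Pygm at 11.6 (25 UMIs) and 4.58 CPM (6 UMIs). Oligodendrocytes, precursors and microglia had at most 8 Pygm UMIs each per library. The small Gfap-rich astrocyte cluster of 63 and 18 cells had Pygb at 438 and 435 CPM and Pygm at 40.7 and 76.7, against 204 and 217 for Pygb and 123 and 153 for Pygm in the main SD astrocyte cluster.

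Gys1 encodes the glycogen synthase of tissues other than liver (chr7:45434844-45456619, plus strand). It was highest in astrocytes, at 35.3 CPM (31.2 to 39.8) and 22.5 (18.1 to 27.5), followed by oligodendrocyte precursors at 21.9 (14.3 to 32.1) and 17.8 (9.49 to 30.5). The intervals of these 2 classes overlapped in both libraries. Neurons were at 6.65 and 5.74 CPM, so astrocytes exceeded them 5.31-fold (4.57 to 6.16) and 3.91-fold (3.10 to 4.89). Oligodendrocytes were lowest, at 1.93 and 1.37 CPM from 24 and 11 UMIs.

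Gbe1, the branching enzyme (chr16:70313949-70569716, plus strand), departed from the other glycogen genes. Endothelial cells, which line the vessels, had the highest level, at 81.4 CPM (69.8 to 94.4) and 86.2 (71.0 to 104), and its interval did not overlap that of the next class in either library. Astrocytes were at 16.7 (13.9 to 19.8) and 9.90 (7.11 to 13.4). Endothelial cells exceeded astrocytes 4.89-fold (3.86 to 6.20) and 8.70-fold (6.04 to 12.8), and exceeded neurons 12.6-fold (10.5 to 14.9) and 13.3-fold (10.8 to 16.3). Astrocytes exceeded neurons 2.57-fold in SD but 1.53-fold (1.09 to 2.11) in SD+RS, so Gbe1 did not pass the rule for that pair. Gys1, by contrast, had 9 and 4 UMIs in endothelial cells (4.19 and 3.05 CPM).

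Over the vessel comparison, 5 members had enough UMIs. Gbe1, Ldha and Slc16a1 were higher in endothelial cells than in astrocytes, and Pygb and Ldhb lower; of 8543 genes tested, 15.6% were higher and 14.1% lower. Ppp1r3c was not tested, with 3 and 0 endothelial UMIs, nor were Pygm, Gys1 and Slc16a7. Mural cells against astrocytes gave 0 of 4 tested members higher and 2 lower, Pygb and Ldhb, with 18.9% and 8.09% of 5192 genes called.

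Mural cells against neurons gave 1 of 4 higher, Pygm at 16.3-fold (11.4 to 22.6) and 25.3-fold (17.6 to 35.5), and 1 lower, Ldhb, with 26.3% and 11.8% of 5443 genes called. Endothelial cells against neurons gave 2 of 5 higher, Gbe1 and Slc16a1, and 2 lower, Pygb and Ldhb, with 24.7% and 19.7% of 9015 genes called.

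Other genes of glycogen metabolism were counted between astrocytes and neurons in the same way. Of 25 listed, 18 could be tested, with 9 higher in astrocytes and 6 lower, against 25.9% and 19.4% of all genes tested. Their median log2 ratio was 0.92 in SD and 1.06 in SD+RS, against 0.10 and 0.12 over all genes. Phkg1, the catalytic subunit of phosphorylase kinase, which switches phosphorylase on, was at 362 and 427 CPM in astrocytes and 0.922 and 0.563 in neurons. Phka1, a regulatory subunit of that kinase, was at 156 and 114 CPM against 9.07 and 8.85. Ppp1r3d, another glycogen-targeting subunit of protein phosphatase 1, was at 32.4 and 17.9 CPM against 1.70 and 1.86. In endothelial cells against astrocytes, 1 of 12 tested was higher, Pgm1 (39.6 and 41.2 against 17.6 and 20.3 CPM), and 7 were lower, against 15.6% and 14.1% of all genes tested. Pgm1 interconverts glucose 1-phosphate and glucose 6-phosphate.

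The lactate dehydrogenase genes were highest in different classes, Ldha in endothelial cells and Ldhb in astrocytes. The sequence upstream of each is shown because of that contrast. The lines below give 160 bases before each start in the RefSeq table (GRCm38.p6), 5′ to 3′ on the gene's strand. Ldha has 2 entries there, at chr7:46845644-46845803 and chr7:46846922-46847081 (plus strand), both inside the longer GENCODE span of the gene given with its levels, and Ldhb has 1, at chr6:142507958-142508117 (minus strand). Capitals mark ACGTG, a form of the core of the hypoxia response element, on either strand. A CACGTG run holds it on both strands. The form GCGTG was not counted or marked.
Ldha, first entry: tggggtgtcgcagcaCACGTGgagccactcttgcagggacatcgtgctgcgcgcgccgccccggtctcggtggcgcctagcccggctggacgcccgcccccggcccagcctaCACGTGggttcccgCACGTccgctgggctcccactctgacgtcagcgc
Ldha, second entry: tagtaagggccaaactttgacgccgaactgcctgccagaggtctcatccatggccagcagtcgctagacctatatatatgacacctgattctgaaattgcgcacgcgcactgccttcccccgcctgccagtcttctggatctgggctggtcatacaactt
Ldhb: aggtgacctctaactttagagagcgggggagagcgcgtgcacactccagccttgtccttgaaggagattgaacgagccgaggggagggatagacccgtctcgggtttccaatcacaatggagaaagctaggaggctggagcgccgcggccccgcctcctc

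The first Ldha stretch held 5 matches to ACGTG in 3 runs, and the second Ldha stretch and the Ldhb stretch held 0. The Ldhb stretch does hold GCGTG, and the second Ldha stretch holds it on the other strand. In the full windows, 250 bases before to 50 after a start, 19.6% of the 32851 promoters in the RefSeq table held the motif. Among the members, 8 genes had 9 windows, and 5 genes had a match: Pygb, Pygm, Ppp1r3c, Ldha (in 1 of its 2 windows) and Slc16a1. The windows of Gys1, Gbe1 and Ldhb had none. A match is a run of letters and not a measured binding site.

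Ldha (chr7:46841475-46855627, plus strand) was highest in endothelial cells, at 436 CPM (408 to 464) and 386 (353 to 421). Neurons followed at 295 (292 to 299) and 308 (304 to 311), with mural cells at 258 (222 to 298) and 285 (237 to 342), whose intervals overlapped those of neurons. Astrocytes were lower, at 150 (141 to 159) and 136 (125 to 147), and oligodendrocytes lowest, at 31.8 (28.7 to 35.1) and 19.9 (16.9 to 23.2). Endothelial cells exceeded astrocytes 2.91-fold (2.67 to 3.18) and 2.84-fold (2.52 to 3.21). Neurons exceeded astrocytes 1.98-fold in SD and 2.27-fold in SD+RS, so the pair missed the 2-fold rule in SD. Every one of 35 neuron clusters lay above the astrocyte level of Ldha in both libraries.

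Ldhb (chr6:142490249-142507957, minus strand) had another order, with its lowest level in the class where Ldha was highest. Astrocytes were highest at 1632 CPM (1603 to 1661) and 1667 (1627 to 1706), then microglia at 742 (693 to 794) and 877 (816 to 942), and neurons at 600 (594 to 605) and 645 (640 to 650). Endothelial cells were lowest, at 69.8 (59.1 to 81.9) and 45 (34.2 to 58.0). No neighbours in this order of 7 classes had overlapping intervals in either library. Astrocytes exceeded neurons 2.72-fold (2.67 to 2.78) and 2.58-fold (2.52 to 2.65), and endothelial cells 23.4-fold and 37.0-fold. The endothelial level, and so that ratio, counts RNA carried from other cells, whose size is given with the carried RNA.

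The Ldha share of all Ldha and Ldhb UMIs put these orders in 1 value per class. It was 86.2% (84.0 to 88.2) and 89.6% (86.7 to 92.0) in endothelial cells, 55.4% and 56.1% in mural cells, and 33.0% (32.7 to 33.4) and 32.3% (32.0 to 32.6) in neurons. Astrocytes had the lowest share, 8.39% (7.93 to 8.88) and 7.53% (6.94 to 8.16), below microglia (13.8% and 10.4%) and oligodendrocytes (17.1% and 10.8%). The 2 transcripts may be captured unequally, so the share compares classes and does not give the subunit makeup of any class. Carried Ldhb is counted in the endothelial share.

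**Figure D3:**
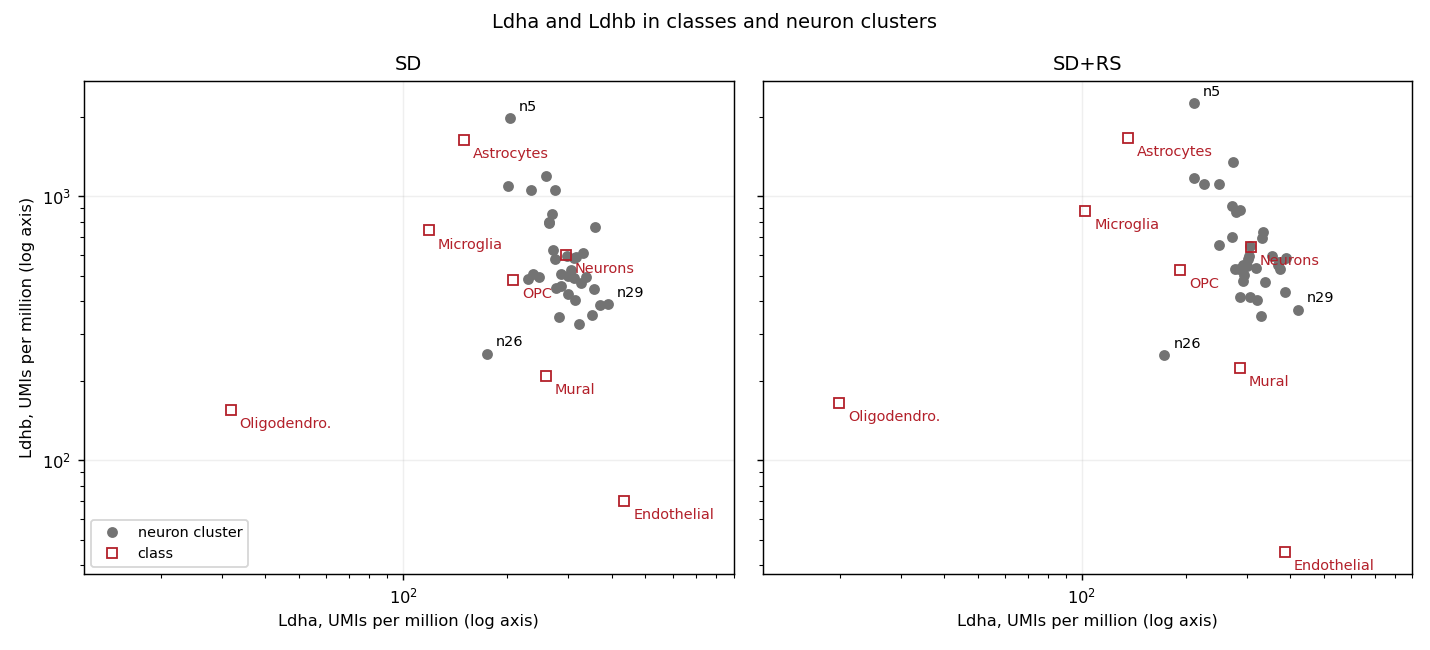
Ldha (x axis) against Ldhb (y axis) in CPM, both axes log, in SD (left) and SD+RS (right). Grey points are the 35 neuron clusters and red squares the 7 classes; n26 was lowest for both genes and n29 highest for Ldha. Astrocytes and the neuron cluster n5 lay at high Ldhb, endothelial cells at high Ldha and low Ldhb, and 34 of the 35 neuron clusters lay below astrocytes for Ldhb.

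Among neurons, Ldhb varied far more than Ldha. Over 35 clusters Ldha ran from 174 to 390 CPM in SD (median 287) and from 173 to 421 in SD+RS (median 300.4), while Ldhb ran from 253 to 1980 (median 506) and from 250.4 to 2249 (median 565). The lowest cluster for both genes was n26, led by the hormone genes Oxt and Avp (33 and 39 cells). Its cells had a median of 63720 UMIs, against 21578 and 21046.5 in all neurons. Its place is thus one in shares of UMIs and not in UMIs per cell. The highest for Ldhb was n5, GABAergic cells led by Pou3f1, Shh, Lhx8 and Lhx6 (57 and 58 cells), at 1980 CPM (1900 to 2063) and 2249 (2168 to 2331). It was the 1 neuron cluster above the astrocyte level in both libraries, and its Ldha share was 9.33% (8.23 to 10.5) and 8.57% (7.63 to 9.59). Cluster n23, led by Sst and Npy, came second at 1193 and 1350 CPM. Across the 35 clusters the Ldhb levels of the 2 libraries had a Spearman's rho of 0.89, a description only, since all clusters of a library share its preparation.

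Cluster n5 was also at an end of the range for other members. Its Slc16a1 was at 27.4 (18.7 to 38.7) and 24.4 CPM (16.7 to 34.4), highest of the 35 in both libraries, against medians of 7.74 and 8.14. Its Gys1 was at 19.7 (12.5 to 29.6) and 11.4 (6.39 to 18.8), highest in SD, while in SD+RS cluster n0 was at 11.6 with an overlapping interval. Its Gbe1 was at 1.71 (0.207 to 6.19) and 1.52 CPM (0.184 to 5.50), from 2 UMIs in each library, lowest in SD but not in SD+RS, where n0 had 0 UMIs. Ermn, an oligodendrocyte marker, was among its leading genes, and its summed glial markers were at 141 CPM. The 42 neuron clusters had a median of 110.5 and a range of 72.2 to 1219, the highest in a cluster not described. Of the 35 described, only n8 (199), n33 (193) and n38 (147) were above n5. The part of glial RNA in these levels was not tested. In the authors' deposited tables, a cluster led by Pou3f1, Lhx8 and Ldhb had average log differences of Ldhb from the other cells, taken as natural log since the header gives no base, of 1.15 with both libraries together, 1.12 in SD and 1.19 in SD+RS.

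Other neuron clusters led for single members. Gbe1 was highest in n20, led by Six3 and Pmaip1, in SD (22.7 CPM, 15.9 to 31.5) and in n36, led by Trh and Otp, in SD+RS (18.4, 10.3 to 30.3). Pygm was highest in n38, led by Calca and Lhx8, at 10.3 (5.90 to 16.8) and 14 CPM (8.13 to 22.3). Pygb stayed within 28.4 to 72.7 CPM in SD and 25.3 to 70.2 in SD+RS, and 0 of 35 clusters reached the astrocyte level.

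The 2 monocarboxylate transporters were highest in different classes, and both were found in oligodendrocytes, their precursors and neurons. Slc16a1 (MCT1; chr3:104638668-104658462, plus strand) was highest in endothelial cells, at 171 CPM (154 to 190) and 177 (155 to 201), where it moves lactate and ketone bodies across the vessel wall. Oligodendrocytes followed at 48.3 (44.5 to 52.3) and 60.3 (55.0 to 65.9), and astrocytes at 38.5 (34.2 to 43.2) and 37.4 (31.8 to 43.8). Endothelial cells exceeded astrocytes 4.45-fold (3.80 to 5.21) and 4.72-fold (3.84 to 5.83), and neurons 20.1-fold and 20.3-fold. Neurons were at 8.50 and 8.70 CPM, 4.53-fold (3.93 to 5.2) and 4.30-fold (3.60 to 5.12) below astrocytes. Mural cells had 0 and 2 UMIs, and 3 UMIs in SD would be 4.28 CPM.

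Slc16a7 (MCT2; chr10:125219270-125389465, minus strand) is the high-affinity transporter ascribed to neurons. Neurons had it at 10.4 (9.74 to 11.2) and 10.1 CPM (9.47 to 10.8), but oligodendrocyte precursors were higher, at 28.6 (19.8 to 40) and 23.3 (13.6 to 37.3). Oligodendrocytes were at 15.3 (13.2 to 17.6) and 16.2 (13.5 to 19.2), above neurons with no overlap of intervals. Mural cells were at 17.1 and 19.2 (12 and 8 UMIs), all of it from the smooth muscle cluster, at 32.3 and 26.6 CPM with 0 UMIs in pericytes. Astrocytes had 2 UMIs in SD (0.266 CPM, 0.032 to 0.963) and 6 in SD+RS (1.45, 0.532 to 3.15). Endothelial cells had 0 in both, where 3 UMIs would be 1.40 and 2.29 CPM. Astrocytes and endothelial cells were thus the 2 classes in which the gene was at or near 0, and both had Slc16a1.

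Partners of the transporters and of lactate use were listed beside them. Of 16, 10 could be tested between astrocytes and neurons, with 2 higher in astrocytes and 0 lower, against 25.9% and 19.4% of all genes tested. Slc16a6, another member of the transporter family, was at 78.2 and 57.3 CPM against 2.99 and 2.49, and Pdk2, a kinase that inhibits pyruvate dehydrogenase, at 84.5 and 79.96 against 19.3 and 18.7. Bsg, the chaperone that brings Slc16a1 to the membrane, was at 13666 and 14774 CPM in endothelial cells against 547 and 530 in astrocytes and 922 and 965 in neurons. Of 20 genes of glucose uptake and glycolysis, 19 were tested between astrocytes and neurons, with 6 higher and 4 lower, shares near those of all genes. The glucose transporter Slc2a1 was at 319 and 361 CPM in astrocytes, 10.5 and 10.5 in neurons, and 4149 and 3031 in endothelial cells. The aldolase Aldoc was at 3699 and 3572 CPM in astrocytes against 256 and 265 in neurons, whereas the neuronal enolase Eno2 was at 53.7 and 20.5 against 354 and 332.

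RNA from other cells set a limit on the low levels. Astrocyte markers summed in neurons to 0.303% and 0.231% of their astrocyte level, and astrocyte RNA at those shares would carry 0.662 and 0.52 CPM of Pygb into neurons, where 53.2 and 51.1 were measured. For Pygm it would carry 0.351 and 0.325 CPM of the measured 3.59 and 3.60, and for Ppp1r3c 0.19 and 0.128 of 0.75 and 0.607. Neuron markers in endothelial cells were at 6.45% and 7.99% of their neuronal level, and at those shares neurons would bring 38.6 and 51.5 CPM of Ldhb into endothelial cells. Of the 10 astrocyte markers, S1pr1 was at 106% and 72.8% of its astrocyte level in endothelial cells, so it was left out there, a choice made after seeing the data. The other 9 summed to 0.891% and 0.482% of their astrocyte level, which would bring 14.5 and 8.03 CPM of Ldhb. In SD the measured 69.8 CPM (59.1 to 81.9) lay above these 2 amounts together, and in SD+RS the interval of the measured level (34.2 to 58.0) held the neuronal amount alone. For endothelial Ldha the same shares of neuronal and astrocyte RNA gave 19.0 and 24.6 CPM and 1.33 and 0.654 CPM, against 436 and 386. The neuron marker Stmn2 was kept in these shares, at 14.2% and 20.9% of its neuronal level in endothelial cells. Without it neurons would bring 31.5 and 37.5 CPM of Ldhb and 15.5 and 17.9 of Ldha.

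Between the libraries, most tested members did not differ within a class by the rule used. A member counted as changed within a class when SD+RS and SD differed by more than 1.5-fold with an interval that excluded 0 on the log2 scale. Over 7 classes 4 of 44 tested pairs of member and class were lower in SD+RS and 0 higher. Of all genes tested in a class, 2.51% (neurons) to 5.59% (astrocytes) were lower. From 1.38% (neurons) to 4.99% (endothelial cells) were higher.

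**Figure D4:**
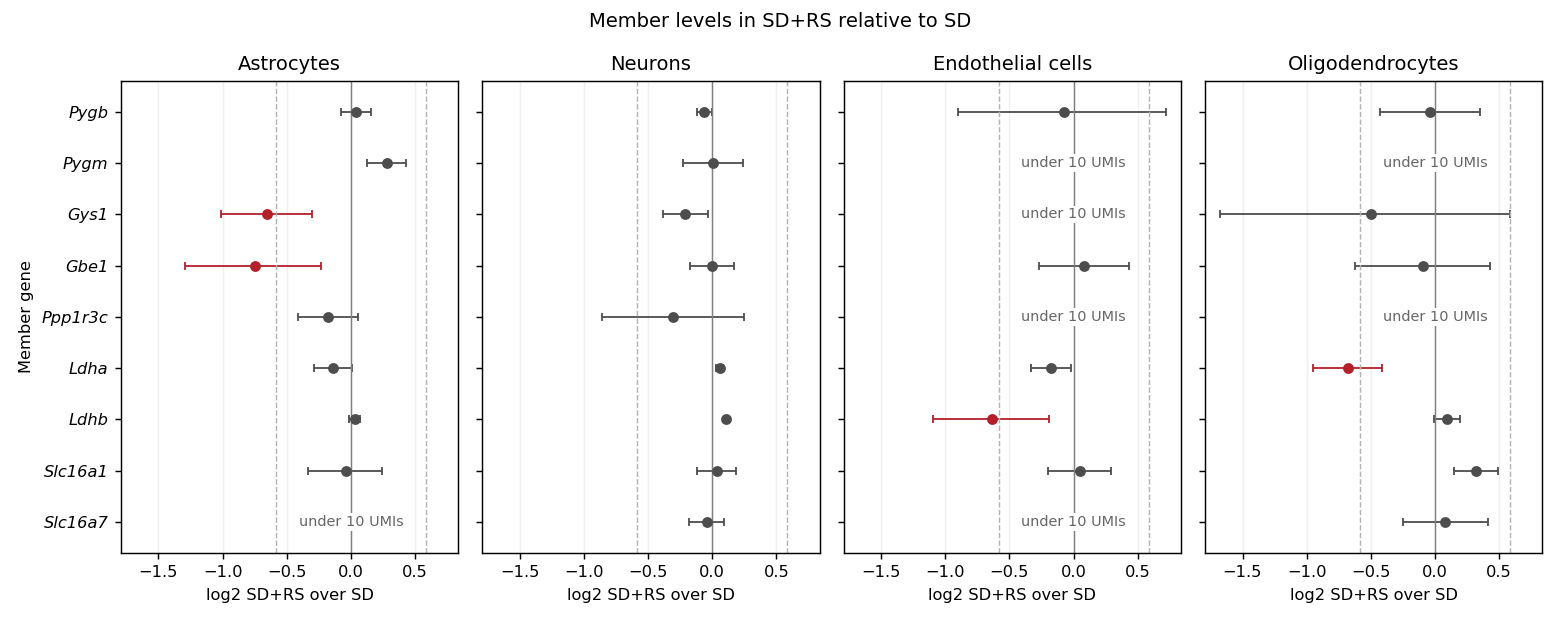
Log2 ratio of SD+RS over SD for each gene in astrocytes, neurons, endothelial cells and oligodendrocytes. Bars are 95% intervals, dashed lines mark 1.5-fold, red points passed the rule, and "under 10 UMIs" marks genes with too few in at least 1 library. Gys1 and Gbe1 in astrocytes, Ldhb in endothelial cells and Ldha in oligodendrocytes were lower in SD+RS, and no member passed in neurons.

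In astrocytes 2 of 8 tested members were lower, Gys1 and Gbe1, and 0 higher. Over 11639 genes 5.59% were lower and 3.67% higher. Gys1 went from 35.3 to 22.5 CPM (265 and 93 UMIs), and its SD+RS over SD ratio on the log2 scale was −0.65 (−1.01 to −0.31). Gbe1 went from 16.7 to 9.90 CPM (125 and 41 UMIs), with −0.75 (−1.30 to −0.23). The other glycogen genes did not pass: Ppp1r3c had −0.18 (−0.41 to 0.05), Pygb 0.04 (−0.08 to 0.16) and Pygm 0.28 (0.13 to 0.43), the last with an interval above 0 but short of 1.5-fold. Ldha (−0.14), Ldhb (0.03) and Slc16a1 (−0.04) had intervals that included 0.

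The astrocytes of the 2 libraries fell largely into different clusters, 1801 SD and 223 SD+RS cells in c6 and 95 and 944 in c7. Within c6 Gys1 had a ratio of −0.94 and passed, and within c7 −0.83, where 14 and 74 UMIs left an interval that included 0. In c7 alone Pygm passed as higher, at 0.61. Gys1 was lower in cells with Xist alone (−0.61) and in cells with Y-linked UMIs alone (−1.06), and Gbe1 in the former (−0.71), with too few UMIs in the latter. As a mean over cells, neither passed (−0.51 for Gys1 and −0.57 for Gbe1), and Gbe1 did not pass with cells thinned to 2000 UMIs (−0.59).

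Other transcripts moved beside these in astrocytes. The 8 neuron markers had a median log2 ratio of −1.04, 6 of them lower, with sums of 459 and 269 CPM and none at 0. At their shares of the neuronal level, 6.34% and 3.75%, neurons would bring 0.421 and 0.215 CPM of Gys1 and 0.410 and 0.242 of Gbe1 into astrocytes, against the measured levels of 35.3 and 22.5 and of 16.7 and 9.90. Glucocorticoid response genes had a median of −1.14, 8 of 12 lower, and heat shock genes −0.68, 11 of 14 lower. Hypoxia response genes had −0.50, 3 of 9 lower. Over all genes tested the median was −0.02, and 5.59% were lower. The nuclear RNA Malat1 was at 78176 and 90373 CPM (0.21, 0.20 to 0.22), and the nuclear RNA Neat1 at 81.9 and 166 (1.02, 0.86 to 1.18). The part of these in the Gys1 and Gbe1 ratios was not tested.

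Of the other glycogen genes, 2 of 20 were lower in astrocytes and 0 higher. Over all genes tested in astrocytes, the shares beside this and the next lists were 5.59% lower and 3.67% higher. The one that met the rule for naming was Ppp1r3d, at 32.4 and 17.9 CPM (−0.86, −1.25 to −0.48). Phka1 (156 and 114 CPM, −0.45) and Pygl, the liver phosphorylase (12.8 and 17.9, 0.48), did not pass. Of 10 receptors that act on astrocyte glycogen, 5 were tested and 2 were higher: Adrb1, the beta-1 adrenergic receptor, at 15.5 and 40.3 CPM (1.38, 1.03 to 1.74), and Adra1a, at 8.26 and 13.3 (0.69, 0.13 to 1.23). In glycolysis 2 of 20 were lower, the enolase Eno2 (53.7 and 20.5 CPM, −1.39) and the phosphofructokinase Pfkl (41.7 and 25.8, −0.69), and 1 was higher. Eno2 was far higher in neurons, whose markers were lower in SD+RS astrocytes. The part of carried neuronal RNA in the Eno2 ratio was not tested.

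In neurons 0 of 9 members passed, with 2.51% of 16007 genes lower and 1.38% higher. The ratios ran from −0.30 for Ppp1r3c (−0.86 to 0.25) to 0.11 for Ldhb (0.09 to 0.12). Ldha was at 0.06 (0.03 to 0.08), Pygb at −0.06 and Gys1 at −0.21 (−0.39 to −0.03), and these intervals, like that of Ldhb, excluded 0. Neuronal Ldha had an interval that included 0 both in cells with Xist alone (0.03, −0.01 to 0.07) and in cells with Y-linked UMIs alone (0.02, −0.03 to 0.07). Neuronal Ldhb was at 0.02 (−0.00 to 0.05) in the former and 0.12 (0.09 to 0.15) in the latter. Slc16a7 had −0.04 (−0.18 to 0.09) and Slc16a1 0.03 (−0.12 to 0.18). At this depth the neuronal intervals of Pygb, Ldha, Ldhb, Slc16a1, Slc16a7, Gbe1, Pygm and Gys1 all lay within 1.5-fold.

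In endothelial cells 1 of 5 tested members was lower, Ldhb, with 2.96% of 9264 genes lower and 4.99% higher. Ldhb went from 69.8 to 45 CPM (150 and 59 UMIs), with −0.63 (−1.09 to −0.19). It did not pass with called doublets kept (−0.40) or with the mixed endothelial and mural cluster added (−0.14). The 9 astrocyte markers other than S1pr1 summed to 143 and 83.9 CPM in endothelial cells, S1pr1 itself was at 464 and 323, oligodendrocyte markers at 1263 and 715, and neuron markers at 467 and 572; their part in the ratio was not tested. The members highest in endothelial cells differed less: Ldha had −0.17 (−0.33 to −0.02), Gbe1 0.08 (−0.27 to 0.43) and Slc16a1 0.05 (−0.20 to 0.29). Ldha had 0.20 (−0.02 to 0.42) in cells with Xist alone and −0.48 (−0.90 to −0.08) in cells with Y-linked UMIs alone. Neither passed, and the difference between them was not tested. The latter value came from 338 and 61 UMIs in 123 and 38 cells. Hypoxia response genes had a median of −0.69 there, with 6 of 9 lower, among them Ankrd37 (134 and 64.8 CPM).

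In oligodendrocytes 1 of 7 tested members was lower, Ldha, from 31.8 to 19.9 CPM (396 and 160 UMIs), at −0.68 (−0.95 to −0.41), with 3.59% of 11047 genes lower and 4.03% higher. In cells with Xist alone it did not pass (−0.50). Neuron markers summed to 333 and 314 CPM in oligodendrocytes, and at those shares neurons would bring 13.6 and 13.5 CPM of Ldha. Without the marker Tubb3, at 25.2% and 21.9% of its neuronal level there, neurons would bring 9.72 and 9.50 CPM. Cluster c1, led by Ptgds and Opalin, had Ldha at 38.2 and 22.6 CPM and cluster c17, led by Klk6 and Apod, at 15.6 and 13, while Ldhb was at 102 and 115 in c1 and 288 and 290 in c17. Slc16a1, through which oligodendrocytes exchange lactate with axons, went from 48.3 to 60.3 CPM, with a ratio of 0.32 (0.14 to 0.50) short of 1.5-fold.

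None of the tested members passed in mural cells (4 tested, with 4.63% of 5552 genes lower and 2.9% higher), oligodendrocyte precursors (6 tested, 2.52% and 2.5% of 9081) or microglia (5 tested, 3.69% and 2.88% of 7053). Ppp1r3c in mural cells, at 23 and 3 UMIs, had a log2 ratio of −2.19 (−4.57 to −0.46) but was under the minimum of 10 UMIs. Microglial Ldhb had 0.24 (0.10 to 0.38).

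Across the 14 points of 7 classes in 2 libraries, the glycogen genes Ppp1r3c and Pygm had the highest correlation among members (Pearson's r = 0.89 on log2(CPM + 1)), followed by Pygb and Pygm (0.85), and Slc16a1 and Slc16a7 the lowest (−0.65). These values describe 7 classes each counted in both libraries. Among 14491 other genes, those most like a member were Lrig1 for Ppp1r3c (0.96), Mical2 for Pygb (0.97), Gm14964 for Pygm (0.96), Ttc14 for Gys1 (0.95), Hexim1 for Gbe1 (0.96), Dgkh for Ldha (0.96), Hnmt for Ldhb (0.92), Gm28875 for Slc16a1 (0.88) and Rap2a for Slc16a7 (0.92).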

How the data were processed

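Per the labels, 1 single-cell library per group was made with 10x Genomics chemistry from pooled preoptic tissue. Per the submitters' processing notes, Cell Ranger, Seurat 4.0.4 and the mm10 build were used. The matrices the authors deposited hold raw UMI counts per gene and barcode (10262 and 8106 barcodes, 132191585 and 123500649 UMIs). The authors' deposited marker tables give a log difference per cluster, taken as natural log, and a p-value over cells, which entered no comparison. Barcodes needed 500 genes or more and at most 20% mitochondrial UMIs (9875 and 7709 kept), and 580 and 297 called doublets (5.87% and 3.85%) removed with Scrublet in scanpy 1.11.5. Cells were clustered (Leiden, resolution 1.0) without the members, the listed pathway genes, early response, heat shock and sex-linked genes, and clusters named from at least 3 markers. Clusters left unnamed held 11.8% and 7.29% of cells. Among them were c14 (276 and 239 cells, led by Nrn1 and Tbr1) and c26 (75 and 65 cells), each with all 8 neuron markers. They were left unnamed because genes listed for another class were among their leading genes, so the described neurons lack them. Neurons were clustered again, and 35 of 42 clusters described (at least 20 cells per library, no low depth, glial markers under 3 times the median). UMIs were summed per class and library. Levels carry exact Poisson intervals, shares exact Clopper-Pearson intervals, and ratios exact conditional binomial intervals (scipy 1.17.1). List genes were named by size, up to 3 per list and comparison with at least 50 UMIs, and for each member the most correlated gene. Calls were checked on simulated counts that held Poisson error only, so the check cannot speak to variation between animals or preparations. The members and lists were chosen with earlier results of these data known. Alternatives are given at the end.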

Additional observations from a re-analysis of the deposited data

Results flagged for a closer look

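The SD+RS over SD ratios of 2 members had intervals on opposite sides of 0 in different classes, and the differences between classes were not tested. For Ldha the log2 ratio was 0.0577 in neurons, −0.17 in endothelial cells and −0.68 in oligodendrocytes. For Ldhb it was 0.11 in neurons and 0.24 in microglia, and −0.63 in endothelial cells. The sex mix of the libraries differed, and not all of these ratios held within sex. Neuronal Ldha had intervals that included 0 in cells with Xist alone (0.03) and in cells with Y-linked UMIs alone (0.02). Endothelial Ldha was at 0.20 in the former and −0.48 in the latter. Ldhb in cells with Xist alone was at 0.02 in neurons and 0.12 in microglia, both with intervals that included 0, and at −0.75 (−1.33 to −0.18) in endothelial cells.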

How the results depend on the processing

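No paired analysis was possible because each group was 1 library, and for the same reason no library could be left out. The 6 members higher in astrocytes than in neurons and the 0 changed in neurons kept within 1.5 times of that count under every alternative run, with 5 of the 6 when cells were thinned (Ppp1r3c had too few UMIs) and 5 in astrocyte cluster c7 alone. The 3 members higher in endothelial cells than in astrocytes became 1 against cluster c7 alone. The 2 changed in astrocytes became 0 as a mean over cells, and 1 when thinned, in cells with Y-linked UMIs alone, with at least 50 UMIs required, in cluster c6 alone and in cluster c7 alone; in c7 that 1 was Pygm and not Gys1. The 1 changed in endothelial cells became 0 with doublets kept, in cells with Y-linked UMIs alone and with the mixed vessel cluster added. The causes were not tested, except that fewer cells or a higher minimum leaves fewer members tested. Of 697 ratios of single members under the alternatives, 617 stayed within the main interval, 80 moved outside it, and 0 called ratios changed sign. The alternatives on single astrocyte clusters, on the shallow astrocyte cluster, on unnamed or glia-marked neuron clusters and on the mixed vessel cluster were added after seeing the data. Depth limits Gys1 and Pygm in most classes other than astrocytes and neurons, Ppp1r3c outside astrocytes, and most members in mural cells.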

Other observations

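A cluster of 527 SD and 66 SD+RS shallow cells with neuron markers, left unnamed, had Gys1 at 24.3 and 25.7 CPM (52 and 5 UMIs), against 6.65 and 5.74 in neurons, and Slc16a7 at 25.7 in both libraries (55 and 5 UMIs). Its Ldhb was at 219.5 and 180.05 CPM, and it had 0 UMIs of Ppp1r3c. A cluster led by Gm47283 and Miat in the authors' deposited table for SD cells had an average log difference, taken as natural log, of 0.317 for Gys1 and −0.339 for Ldha.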
